A study of Mus musculus with 6 samples.

Results

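The genes described here are 45 cell cycle and DNA replication genes, chosen by gene symbol from textbook roles in replication licensing, S phase, mitosis, cyclins and cyclin-dependent kinase (CDK) inhibitors. All 45 were found among the 16516 genes of the deposited table. All 45 also passed a filter on low counts and were tested with 13151 genes in all. RNA-seq was performed on CD11b+ cells of the cortex from 3 4LPS samples and 3 NS samples of wild-type male C57BL6/J mice aged 8 to 10 weeks. 4LPS mice received lipopolysaccharide (LPS) of Escherichia coli i.p. at 500 µg/kg once daily for 4 days. NS mice received 4 daily injections of normal saline. Cells were isolated with magnetic CD11b beads at D7, 7 days after the first injection, and those of 2 mice were pooled in each sample. CD11b is an integrin chain found on microglia, other myeloid cells and natural killer (NK) cells, so the bead isolation does not yield microglia alone.

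Before S phase, the loading factors Cdc6 and Cdt1 place the MCM helicase on replication origins, and Cdc45 and the GINS complex then activate it. D-type cyclins relieve the block that retinoblastoma proteins put on E2F factors, which switch on genes for S phase, and a later wave that includes the cyclin B kinase Cdk1 and the spindle genes drives mitosis. Microglia of the adult brain divide rarely and can renew themselves, and bone marrow progenitors and activated lymphocytes use the same genes, so these transcripts do not tell which cell type they came from.

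Levels are in CPM (counts scaled to one library total after TMM normalization), and group values are mean ± SD with n = 3. Fold changes are 4LPS over NS on the log2 scale with the standard error (SE) from edgeR's quasi-likelihood test, and adjusted p-values are from edgeR with Benjamini-Hochberg adjustment over all 13151 genes. A gene is called higher or lower where its adjusted p is under 0.05. Over all genes tested the median log2 fold change was −0.02. Their CPM summed to 1025000 to 1048000 in 4LPS and 953300 to 975300 in NS, a ratio of 1.07. Library totals were 15164123 to 15462396 counts in 4LPS and 15158342 to 15746606 in NS, so that 1 CPM stood for 14.7 to 16.1 counts. Microglia markers summed to 43730 to 44270 CPM in 4LPS and 44050 to 47230 CPM in NS, above every other marker list, so microglia transcripts were present in all 6 samples. Single microglia markers did differ, since in 6 of 10 all 4LPS samples were below all NS samples (against 17.5% of all genes tested), P2ry12 was called lower (log2 fold change −0.53, adjusted p = 0.00688 from edgeR) and Aif1 higher (0.20, adjusted p = 0.0332 from edgeR). NS replicate 3 stood apart from the other NS samples in the mitosis genes and neutrophil markers, in choroid plexus markers (683 CPM, against 6522 and 5671 CPM in NS replicates 1 and 2), and in endothelial (687 CPM, against 425 and 336) and oligodendrocyte markers (602 CPM, against 393 and 369). Results that rest on it are given with and without it.

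Promoters are shown first, because the replication and the mitosis genes differ in the letters they carry there and are described apart below. RefSeq windows of 300 bases on GRCm38.p6, from 250 bases before to 50 after the start, matched 36 of the 45 genes. They were searched on both strands for the E2F-type letters TTTCCCGC, TTTGGCGC and TTTCGCGC, for the CHR letters TTTGAA (the element through which the DREAM complex represses mitosis genes in resting cells) and for the CCAAT box letters CCAAT. The first stretch, of the helicase subunit Mcm6, stands for the replication genes, and those of Cdk1, the proliferation marker Mki67 and topoisomerase Top2a for the mitosis genes. Each is the 150 bases before the start, 5′ to 3′ in the direction of the gene (all on the minus strand), with matches to any of these letters on either strand in capitals. They lie at chr1:128359706-128359855 (Mcm6), chr10:69352913-69353062 (Cdk1), chr7:135716380-135716529 (Mki67) and chr11:99024190-99024339 (Top2a).
Mcm6: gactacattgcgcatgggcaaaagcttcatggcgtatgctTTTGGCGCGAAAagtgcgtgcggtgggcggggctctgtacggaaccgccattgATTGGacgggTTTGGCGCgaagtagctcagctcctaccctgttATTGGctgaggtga
Cdk1: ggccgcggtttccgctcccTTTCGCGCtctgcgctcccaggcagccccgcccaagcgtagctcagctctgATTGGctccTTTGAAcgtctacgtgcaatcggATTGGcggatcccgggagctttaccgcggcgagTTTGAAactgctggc
Mki67: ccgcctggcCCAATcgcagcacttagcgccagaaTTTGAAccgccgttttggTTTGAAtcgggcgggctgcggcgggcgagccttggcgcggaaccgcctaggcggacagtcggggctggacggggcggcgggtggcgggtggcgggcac
Top2a: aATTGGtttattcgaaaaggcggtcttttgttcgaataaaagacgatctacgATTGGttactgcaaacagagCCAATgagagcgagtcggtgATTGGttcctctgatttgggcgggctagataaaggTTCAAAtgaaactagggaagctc
E2F-type letters stood in 8 of the 15 replication genes with a window (53.3%) and in 1 of the 17 mitosis genes (5.88%, Cdk1), against 3.97% of 10567 tested genes and 2.12% of all 27025 genes with a window. CHR letters ran the other way, with 2 of 15 replication genes (13.3%) and 12 of 17 mitosis genes (70.6%), against 14.5% of tested genes and 20.2% of all genes. CCAAT letters stood in 10 of 15 replication genes (66.7%) and 15 of 17 mitosis genes (88.2%), against 42.9% of tested genes and 41.1% of all genes. In the Mcm6 stretch the first run of capitals holds a pair of overlapping E2F-type matches on opposite strands. A match is a run of letters and not a shown binding site.

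Of the 45 genes, 6 were higher in 4LPS (13.3%, against a background of 9.95% of all genes tested) and 1 was lower (2.22%, against 6.43%). The genes called higher were the helicase subunits Mcm3 and Mcm7, the thymidine salvage enzyme Tk1, Cdk1, Mki67 and the transcription factor E2f1, and the gene called lower was cyclin D1 (Ccnd1). The count of calls is thus close to the background, but the direction was shared. In all, 38 genes had a log2 fold change above 0 (84.4%, against 47.3% of all genes tested), and the median was 0.44, against −0.02 over all genes tested. In 20 of 45 genes all 4LPS samples were above all NS samples (44.4%, against 19.9% of all genes tested), and in 1 gene, Ccnd1, all were below (2.22%, against 17.5%). In bulk samples a larger number of dividing cells and more of each RNA per cell cannot be told apart.

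**Figure D1:**
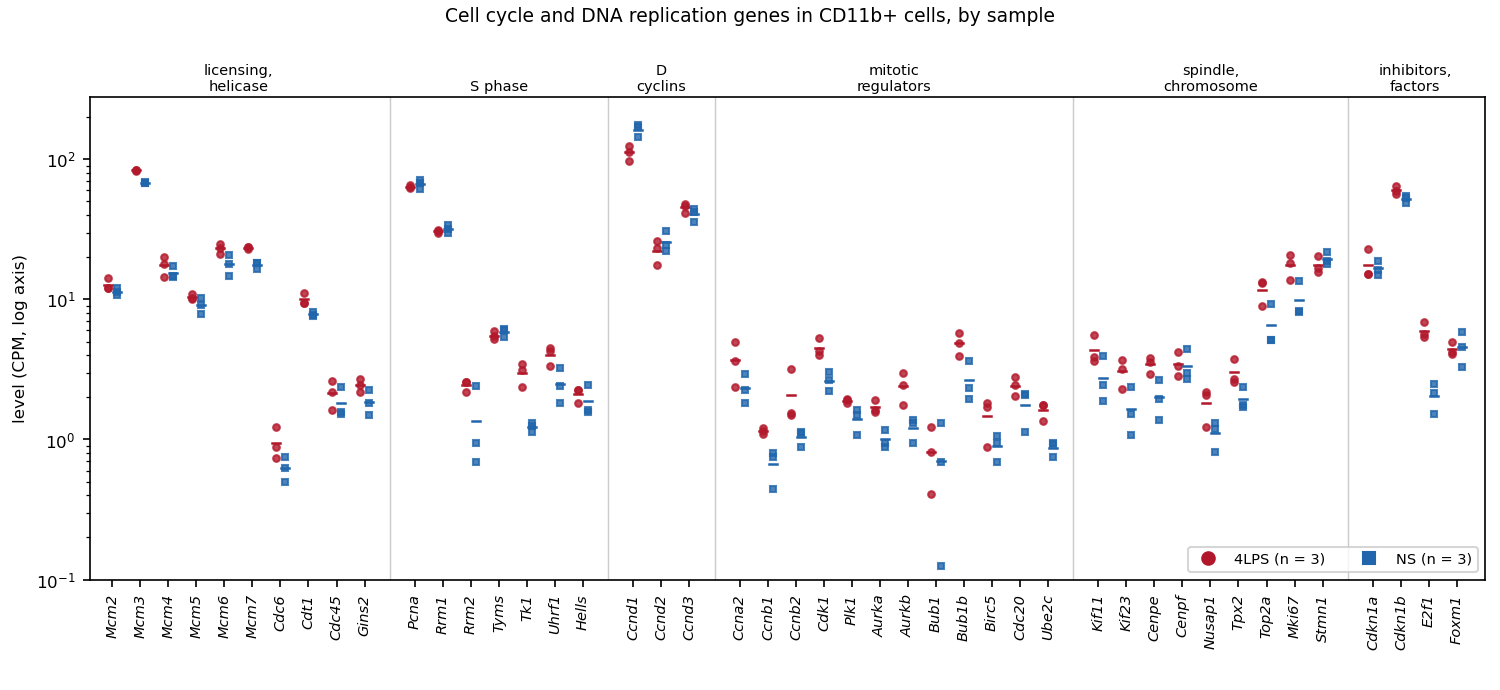
Level of each of the 45 genes in CPM (log axis) in the 3 4LPS samples (circles) and the 3 NS samples (squares), grouped by role, with short lines at the group means. The levels are highest for Ccnd1 and low for the mitotic regulators, in which the 4LPS means lie above NS means throughout.

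Levels per length set the members far apart. In FPKM, which is scaled for gene length, Pcna averaged 63.3 in 4LPS and 70.2 in NS, Ccnd1 31.6 and 49.2, Mcm3 29.5 and 25.6, and Cdkn1b 27.4 and 25.3. Mitosis genes were far lower, with group means of 1.73 in 4LPS and 1.05 in NS for Mki67 and of 0.193 and 0.18 for the checkpoint kinase Bub1. The median member lay at the 17.9th percentile of level among all genes tested and the median mitosis gene at the 12.5th. The SEs of the mitosis genes were 0.22 to 0.71 on the log2 scale. Mki67, with 130 to 306 counts, had an SE of 0.23, while Mcm2, with 172 to 209 counts, had 0.11.

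The licensing and helicase genes moved in 1 direction. All 10 had a log2 fold change above 0 (median 0.32, from 0.18 to 0.59, against 47.3% of all genes tested above 0). Of the 10, 2 were called higher (against 9.95% of all genes tested), and in 5 all 4LPS samples were above all NS samples (against 19.9%). Mcm3 (chr1:20870791-20890536 on GRCm39) had 83.04, 84.3 and 84.3 CPM in 4LPS replicates 1 to 3, against 68.4, 68.2 and 67.7 CPM in NS replicates 1 to 3. The gap was many times the spread within either group, with 83.9 ± 0.741 CPM in 4LPS and 68.1 ± 0.343 CPM in NS. The log2 fold change was 0.30 (SE 0.05, adjusted p = 0.00455 from edgeR), a small change measured with little error.

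Mcm7 (chr5:138162844-138170684), another subunit of the same hexamer, had 23.7, 22.8 and 23.7 CPM in 4LPS, against 18.2, 16.5 and 18.1 CPM in NS. The groups did not overlap, and the log2 fold change was 0.41 (SE 0.08, adjusted p = 0.0145 from edgeR). Mcm6 had 23.3, 21.1 and 25.0 CPM in 4LPS, against 14.7, 17.9 and 20.8 CPM in NS. Here NS replicate 3 came close to 4LPS replicate 2, and the log2 fold change of 0.38 (SE 0.14) did not pass (adjusted p = 0.0995 from edgeR). The loader Cdt1 had 9.38, 9.45 and 11.1 CPM in 4LPS, against 7.62, 8.17 and 7.75 CPM in NS. Its groups did not overlap either, and its log2 fold change was 0.35 (SE 0.12, adjusted p = 0.0898 from edgeR). Mcm2, Mcm4 and Mcm5 had log2 fold changes of 0.18 to 0.20, and Cdc6, Cdc45 and Gins2 of 0.24 to 0.59 with SEs of 0.25 to 0.37. Summed over the 10 genes, levels were 186, 179 and 194 CPM in 4LPS, against 148, 151 and 156 CPM in NS. The ratio was 1.23, and 1.25 without NS replicate 3, against 1.07 over all genes tested.

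Of the 7 S phase genes, 1 was called higher (against 9.95% of all genes tested), and 4 had a log2 fold change above 0. Among the abundant ones, Pcna (the sliding clamp of the replication fork) had 63.5, 62.1 and 65.8 CPM in 4LPS, against 61.6, 67.4 and 70.5 CPM in NS. Its log2 fold change was −0.06 with a 95% interval from −0.21 to 0.09, and the groups overlapped. Rrm1, the large subunit of ribonucleotide reductase, and thymidylate synthase (Tyms) had log2 fold changes of −0.05 (95% interval −0.22 to 0.12) and −0.08 (−0.42 to 0.26). Tk1 (chr11:117702770-117717042), which returns thymidine to the nucleotide pool, was called higher. It had 2.36, 3.13 and 3.46 CPM in 4LPS, against 1.32, 1.13 and 1.24 CPM in NS, with no overlap. Its log2 fold change of 1.27 (SE 0.25, adjusted p = 0.0139 from edgeR) was the largest among the replication genes.

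Rrm2, the regulated small subunit of ribonucleotide reductase, had 2.56, 2.58 and 2.17 CPM in 4LPS, against 0.944, 0.692 and 2.42 CPM in NS. NS replicates 1 and 2 lay far below the 4LPS samples, NS replicate 3 lay among them, and the log2 fold change was 0.85 (SE 0.44, adjusted p = 0.218 from edgeR). When NS replicate 3 was left out, the value was 1.57 (SE 0.31, adjusted p = 0.0128 from edgeR). Uhrf1, which carries DNA methylation over to new strands, had 4.25, 3.33 and 4.48 CPM in 4LPS, against 2.39, 1.82 and 3.22 CPM in NS, and a log2 fold change of 0.69 (SE 0.26, adjusted p = 0.11 from edgeR). Its groups did not overlap, by a narrow margin at NS replicate 3. The chromatin remodeller Hells had a log2 fold change of 0.16 (SE 0.27). The 7 S phase genes together summed to 111.2, 109.6 and 113.9 CPM in 4LPS and to 105.7, 108.3 and 119.3 CPM in NS. The ratio, which Pcna and Rrm1 dominate, was 1.00, and 1.04 without NS replicate 3, against 1.07 over all genes tested.

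Among the D-type cyclins, Ccnd1 (chr7:144483668-144493662) had 113, 97.4 and 125 CPM in 4LPS, against 177, 143 and 169 CPM in NS. All 4LPS samples were below all NS samples, at 112 ± 13.6 CPM in 4LPS and 163 ± 17.5 CPM in NS. It fell by 0.54 on the log2 scale (SE 0.11, adjusted p = 0.0129 from edgeR). Ccnd2 had a log2 fold change of −0.21 (95% interval −0.61 to 0.18) and Ccnd3 of 0.16 (−0.06 to 0.39). Neither passed, and their groups overlapped. Without NS replicate 1 the fold change of Ccnd1 was −0.48 and missed the threshold (adjusted p = 0.0517 from edgeR). Markers of other brain cells also had lower sums in 4LPS. Those of endothelial cells summed to 163.8 to 349 CPM in 4LPS and 336 to 687 CPM in NS (3 of 8 called lower, none higher), and those of astrocytes to 210.1 to 238 CPM in 4LPS and 283 to 303 CPM in NS (4 of 8 called lower, none higher). Sums were also lower for pericytes and smooth muscle (ratio 0.670, 8 of 8 markers below 0), oligodendrocytes (0.779, 8 of 8), oligodendrocyte precursors (0.733, 6 of 6) and neurons (0.755, 6 of 7), with none called. Markers of choroid plexus and ependyma summed to 2219, 27.7 and 539 CPM in 4LPS, against 6522, 5671 and 683 CPM in NS (8 of 8 below 0, none called), with samples of either group far apart. The ratio was 0.216, and 0.152 without NS replicate 3. The part of these cells in the level of Ccnd1 was not tested.

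**Figure D2:**
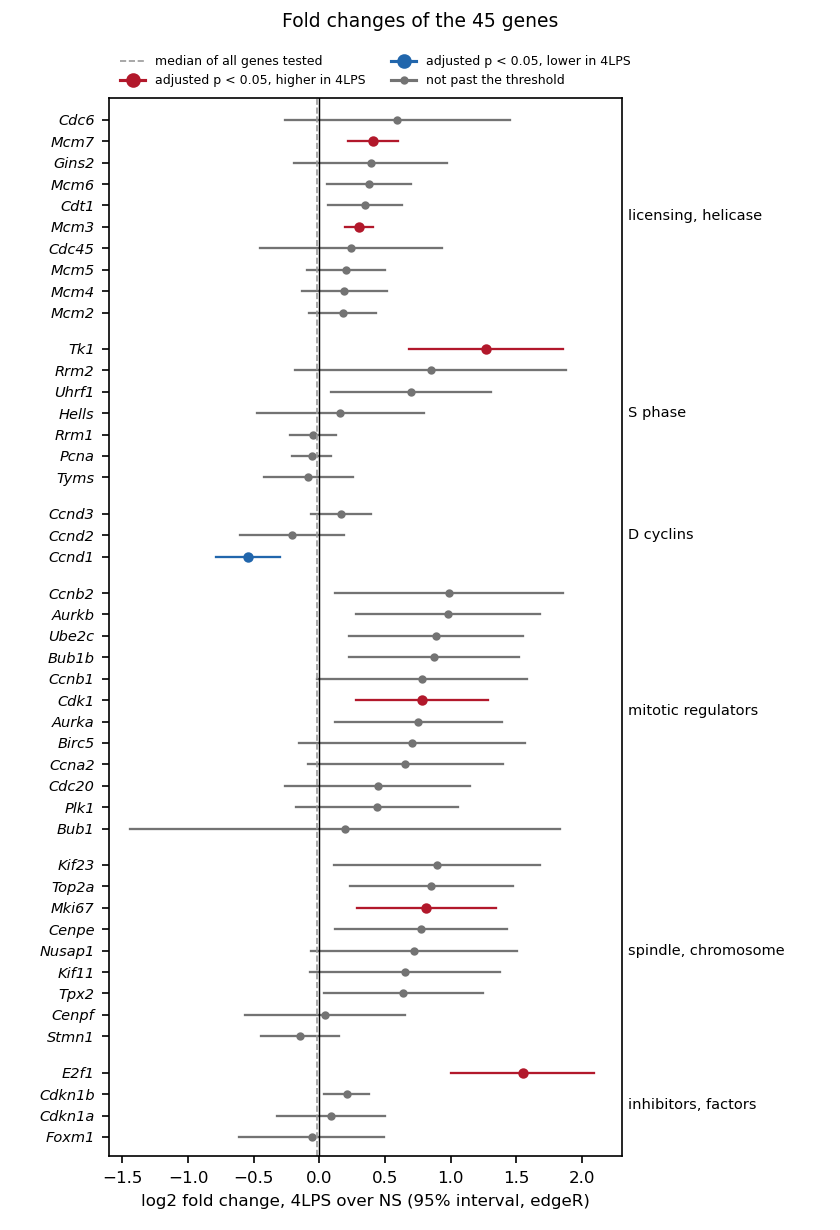
Log2 fold change, 4LPS over NS, of the 45 genes with 95% intervals from edgeR, grouped by role and sorted within each role, with the median of all genes tested as a dashed line. Red marks the 6 genes called higher, blue the 1 called lower (Ccnd1) and grey those not called, and the intervals of the mitotic genes are several times as wide as that of Mcm3.

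The 20 mitosis genes are the cyclin, kinase, spindle and chromosome genes without Stmn1, a tubulin-binding protein also made in cells that do not divide. All 20 had a log2 fold change above 0, but those of Cenpf and Bub1 did not keep this sign. Stmn1 was listed with the spindle genes and was below 0 (−0.15), so the shared sign holds only without it. Cenpf was at −0.0539 without composition factors, at −0.0137 in unfiltered FPKM and as low as −0.11 with a sample left out, and Bub1 as low as −0.29 with a sample left out. The median of the 20 was 0.76 and their range 0.04 to 0.99. Of these, 2 passed the test (against 9.95% of all genes tested), and in 11 the groups did not overlap (55%, against 19.9% of all genes tested). Cdk1 (chr10:69170976-69236595), the kinase that starts mitosis, had 4.25, 4.01 and 5.29 CPM in 4LPS, against 2.64, 2.201 and 3.04 CPM in NS. The groups were apart, and the log2 fold change was 0.78 (SE 0.22, adjusted p = 0.0461 from edgeR). Mki67 (chr7:135291513-135318299), which coats chromosomes and marks dividing cells, had 20.6, 13.8 and 18.1 CPM in 4LPS, against 8.24, 8.17 and 13.5 CPM in NS. Its log2 fold change was 0.81 (SE 0.23, adjusted p = 0.0475 from edgeR), although NS replicate 3 and 4LPS replicate 2 nearly met.

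Top2a, the topoisomerase that untangles replicated chromosomes, had 13.4, 8.90 and 13.02 CPM in 4LPS, against 5.10, 5.16 and 9.30 CPM in NS. NS replicate 3 was above 4LPS replicate 2, and the log2 fold change of 0.85 (SE 0.27) did not pass (adjusted p = 0.0669 from edgeR). The kinase Aurkb of the chromosomal passenger complex had 2.43, 1.77 and 2.98 CPM in 4LPS, against 0.944, 1.38 and 1.30 CPM in NS. Its groups did not overlap, with a log2 fold change of 0.98 (SE 0.30, adjusted p = 0.0628 from edgeR). The ubiquitin-conjugating enzyme Ube2c, which serves the anaphase-promoting complex, had 1.75, 1.36 and 1.76 CPM in 4LPS, against 0.755, 0.943 and 0.930 CPM in NS. It did not overlap either (log2 fold change 0.89, SE 0.29, adjusted p = 0.0709 from edgeR). The checkpoint protein Bub1b had 5.73, 3.94 and 4.88 CPM in 4LPS, against 1.95, 2.33 and 3.66 CPM in NS. Its log2 fold change was 0.87 (SE 0.28, adjusted p = 0.0699 from edgeR), again with no overlap.

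Cyclin B2 (Ccnb2) had a log2 fold change of 0.99 (SE 0.38), cyclin B1 (Ccnb1) of 0.78 (SE 0.35) and cyclin A2 (Ccna2) of 0.65 (SE 0.32), and none of them passed. The kinesins Kif23 and Kif11, which work in cytokinesis and in spindle assembly, had 0.90 and 0.65, the kinetochore motor Cenpe 0.78, the kinase Aurka 0.75 and its activator Tpx2 0.64. Nusap1 (0.72), Birc5 (0.71), Cdc20 (0.45) and Plk1 (0.44), which serve the spindle, the passenger complex, anaphase and mitotic entry, did not pass either. Cenpf and Bub1 had the smallest changes of the group. Bub1 rested on 12, 6 and 18 counts in 4LPS, against 2, 11 and 21 counts in NS, which allowed a log2 fold change from −1.44 to 1.83 (95% interval). Cenpf had a log2 fold change of 0.04 (95% interval −0.57 to 0.65). Stmn1 had −0.15 (95% interval −0.44 to 0.15).

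**Figure D3:**
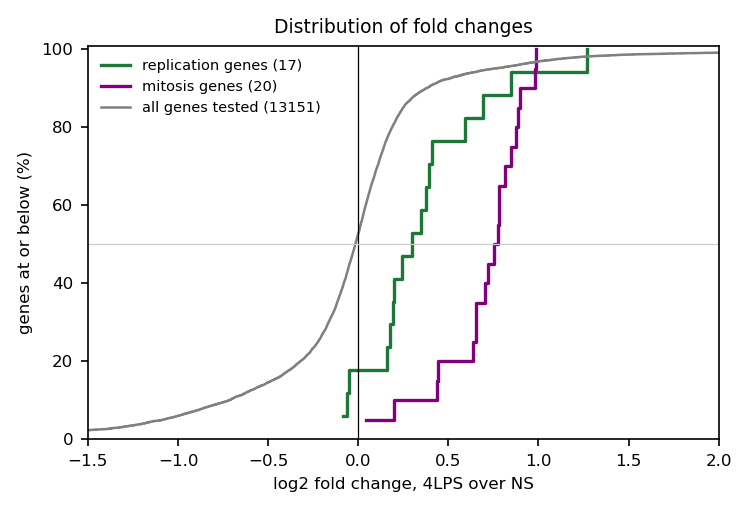
Cumulative share of genes (%) at or below a given log2 fold change, 4LPS over NS, for the 17 replication genes, the 20 mitosis genes and all 13151 genes tested. The curves cross 50% at 0.30 for the replication genes, 0.76 for the mitosis genes and −0.02 for all genes, and the mitosis curve lies above 0, although its lowest genes, Cenpf and Bub1, reach −0.11 and −0.29 with a sample left out and Cenpf −0.0539 without composition factors.

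Samples of 1 group differed in the mitosis genes as a block. Summed over the 20 genes, the level was 87.4, 61.3 and 82.4 CPM in 4LPS, against 39.6, 39.1 and 60.7 CPM in NS. 4LPS replicate 2 and NS replicate 3 were therefore almost level, with means of 77.0 ± 13.9 CPM in 4LPS and 46.5 ± 12.3 CPM in NS. The ratio of means was 1.66, and 1.96 without NS replicate 3, against 1.07 over all genes tested. Stmn1, which is not in these sums, averaged 17.6 CPM in 4LPS and 19.5 CPM in NS. 4LPS replicate 2 had the lowest level of its group in 19 of the 20 genes, and NS replicate 3 the highest of its group in 16 of 20. For the 17 replication genes the sums were 297.7, 288.8 and 308.2 CPM in 4LPS, against 253.6, 259.0 and 275.0 CPM in NS. Their ratio was 1.14, and 1.16 without NS replicate 3, against 1.07 over all genes tested. NS replicate 3 was highest of its group in 8 of 17 genes and 4LPS replicate 2 lowest of its group in 8 of 17.

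Leaving out NS replicate 3 raised the number of genes called higher to 14 of 45, when 12.2% of all 13327 genes then tested were called higher. Those 14 were Mcm3, Mcm6, Mcm7, Rrm2, Tk1, Uhrf1, Cdk1, Bub1b, Kif11, Kif23, Cenpe, Top2a, Mki67 and E2f1. In that fit the log2 fold change was 1.199 for Top2a, 1.095 for Mki67, 1.18 for Bub1b, 1.25 for Kif23, 0.90 for Cdk1, 0.93 for Uhrf1 and 0.51 for Mcm6. Leaving out any other sample left 3 or 4. The calls of Mcm3, Mcm7 and E2f1 held in all 6 fits that left out a sample. Tk1 passed in 4 of them (not without 4LPS replicate 2 or 3, adjusted p = 0.0522 and 0.0546 from edgeR), Mki67 in 2 and Cdk1 in 1. The calls of Cdk1 and Mki67 thus depended on single samples, while their direction did not.

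Markers of blood cells differed between samples as well. Neutrophil markers summed to 2076, 1379 and 1729 CPM in 4LPS, against 949.8, 914.4 and 1476 CPM in NS, a ratio of 1.55 (1.85 without NS replicate 3). Across the samples these sums had nearly the order of the mitosis genes, with 4LPS replicate 2 the lowest of its group in 10 of the 11 markers and NS replicate 3 the highest of its group in 10 of 11. The granule gene Ngp, made by immature neutrophils, had 236, 109 and 173 CPM in 4LPS, against 40.7, 42.1 and 159 CPM in NS. Only Csf3r of the 11 was called higher. It held a large part of each sum, with 846 to 923 CPM in 4LPS and 697 to 749 CPM in NS. Csf3r was also the marker outside the shared order, with its lowest levels in 4LPS replicate 1 and NS replicate 3. NK cell markers summed to 163.5, 151 and 173.8 CPM in 4LPS, against 7.87, 7.11 and 13.3 CPM in NS, and all 14 were called higher. Here too 4LPS replicate 2 was lowest of its group in 13 of 14 markers, and NS replicate 3 highest of its group in 11 of 14.

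T cell markers summed to 19.5 to 22.3 CPM in 4LPS and 5.72 to 7.44 CPM in NS, with 4 of 5 tested called higher. The other, Cd28, had a log2 fold change of −0.36 (SE 0.34). Cd3d, Cd3e, Cd3g and Cd8b1 were too low to be tested, and in each all 4LPS samples were above all NS samples. Cd3e, which defines T cells, had at most 0.540 CPM in 4LPS and 0.0620 CPM in NS. Trac, also listed, was not among the deposited genes. B cell markers summed to 24.5 to 27.0 CPM in 4LPS and 19.0 to 29.2 CPM in NS, with neither of the 2 tested called. Markers of granulocyte and monocyte progenitors summed to 332 to 372 CPM in 4LPS and 227 to 299 CPM in NS, and Kit, Cd34 and Gfi1 were called higher of 6 tested. All 6 had a log2 fold change above 0. Not called were Chil3 (0.90, SE 0.51) and Elane (0.70, SE 0.52) and Mpo (0.31, SE 0.56), which define these progenitors. Cd34 held most of each sum, with 281 to 304 CPM in 4LPS and 210 to 248 CPM in NS. Markers of oligodendrocyte precursors, the main dividing cells of the adult brain, summed to 20.03 to 23.5 CPM in 4LPS and 24.0 to 40.4 CPM in NS, with none of 6 called. Of the other myeloid lists, 5 of 10 dendritic cell markers and 1 of 8 markers of border-associated macrophages were called higher (against 9.95% of all genes tested). None of 7 monocyte markers was called higher, and none of these lists held a lower call. Dendritic cell sums were nonetheless lower in 4LPS (1086 to 1105 CPM, against 1147 to 1340 CPM in NS), most of it Siglech, also listed for microglia. Monocyte sums were 76.6 to 173.4 CPM in 4LPS and 108.4 to 215.7 CPM in NS. Border-associated macrophage sums were 523.2, 230.2 and 356.5 CPM in 4LPS, against 286.7, 311.7 and 418.8 CPM in NS. No listed marker was at 0 in all samples. The part of these cells in the levels of the cell cycle genes was not tested.

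**Figure D4:**
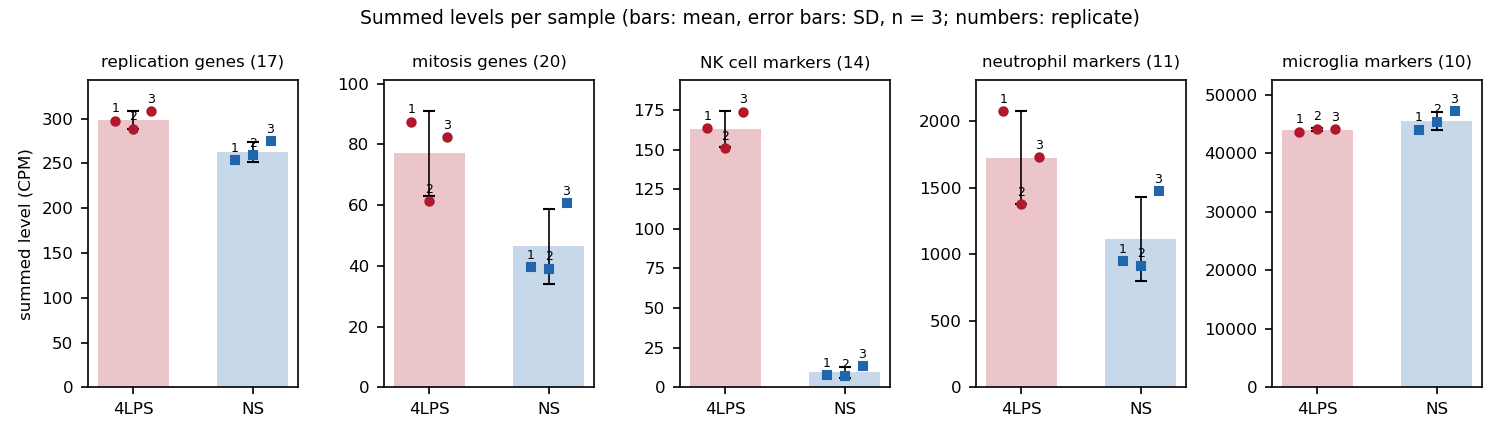
Summed levels (CPM) of the replication genes, the mitosis genes and the markers of NK cells, neutrophils and microglia in 4LPS and NS samples, with bars at the mean, error bars of SD (n = 3) and points numbered by replicate. The replication, mitosis, neutrophil and NK cell panels share the low 4LPS replicate 2 and the high NS replicate 3. The microglia sums also have NS replicate 3 highest, but 4LPS replicate 1 lowest, and differ by a ratio of 0.967.

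E2f1 (chr2:154401326-154411812), the activator of S phase genes, had the largest change of all 45 genes. It had 5.67, 5.37 and 6.92 CPM in 4LPS, against 2.14, 1.51 and 2.48 CPM in NS. Every 4LPS sample was above every NS sample, and the log2 fold change was 1.55 (SE 0.23, adjusted p = 0.0045 from edgeR). Foxm1, which activates mitosis genes, had 4.92, 4.08 and 4.20 CPM in 4LPS, against 3.27, 4.59 and 5.89 CPM in NS. Its groups overlapped, with a log2 fold change of −0.06 (95% interval −0.61 to 0.49). The CDK inhibitor Cdkn1b (p27), which holds cells in quiescence, had 56.7, 64.6 and 59.0 CPM in 4LPS, against 48.5, 54.9 and 52.9 CPM in NS. The groups did not overlap, but the log2 fold change of 0.21 (SE 0.07) did not pass (adjusted p = 0.0933 from edgeR). The p53 target Cdkn1a (p21) had 15.18, 15.16 and 22.9 CPM in 4LPS, against 16.3, 15.0 and 18.7 CPM in NS, and a log2 fold change of 0.09 (95% interval −0.32 to 0.50).

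Further genes of the same machinery were taken from lists set by role, and those named are the called genes with the smallest adjusted p. Of 51 other replication genes tested, 3 were called higher and none lower, with a median near that of all genes (0.06, against −0.02) and a share of calls under the 9.95% of all genes tested. Dna2, the nuclease and helicase that trims Okazaki fragments, had 14.4, 13.3 and 17.02 CPM in 4LPS, against 3.71, 4.34 and 5.21 CPM in NS. The log2 fold change was 1.75 (SE 0.16), larger than any of the 45, with an adjusted p of 0.000403 from edgeR. Pold4, a small subunit of DNA polymerase delta, and the salvage kinase Dck had log2 fold changes of 0.38 (SE 0.07) and 0.35 (SE 0.08), with edgeR's adjusted p at 0.0111 for Pold4 and 0.0217 for Dck.

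Of 54 other mitosis genes tested, 5 were called higher and none lower, a share under the 9.95% of all genes tested that were higher. Of the 54, 46 were above 0 (85.2%, against 47.3% of all genes tested), and the median was 0.45. The smallest adjusted p was that of Incenp, the scaffold of the chromosomal passenger complex that holds Aurkb, with 33.7, 29.0 and 27.4 CPM in 4LPS, against 21.1, 19.3 and 19.6 CPM in NS (log2 fold change 0.58, SE 0.10, adjusted p = 0.00731 from edgeR). Its groups were far apart. Racgap1, which works with Kif23 in cytokinesis, was higher by 0.87 (SE 0.19, adjusted p = 0.0195 from edgeR). The kinesin Kif2c was higher by 1.19 (SE 0.27, adjusted p = 0.0244), and Lmnb1, of the nuclear lamina, by 0.44 (SE 0.11, adjusted p = 0.029), both from edgeR. The fifth was the condensin subunit Smc4 (0.48, SE 0.12, adjusted p = 0.037 from edgeR).

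Of 17 other cyclin and CDK genes tested, 2 were called higher (against 9.95% of all genes tested) and none lower. Cdc25a, the phosphatase that activates CDKs at S phase entry, was higher by 0.45 (SE 0.09, adjusted p = 0.0163 from edgeR). Ccng1, a p53 target, was higher by 0.31 (SE 0.08, adjusted p = 0.0388 from edgeR). Among 18 tested genes of the E2F, pocket protein and DREAM list, 2 were called higher and 1 lower, against 9.95% and 6.43% of all genes tested. E2f3 had 55.9, 47.1 and 57.0 CPM in 4LPS, against 75.7, 65.1 and 72.8 CPM in NS. E2f3 thus fell by 0.42 on the log2 scale (SE 0.09, adjusted p = 0.0193 from edgeR), the opposite direction to E2f1. The pocket protein Rbl2 (p130), which binds E2F in resting cells, was higher by 0.21 (SE 0.05, adjusted p = 0.0234 from edgeR) and Lin9, the DREAM subunit, by 0.51 (SE 0.12, adjusted p = 0.026 from edgeR).

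On GRCm39, exons of 13 of the 45 genes overlap those of another protein-coding gene, and the strand setting of the counting is not stated, so shared reads cannot be told apart. Among the called genes this holds for Mcm7 (Ap4m1 and Cops6), Tk1 (Afmid and Syngr2), Ccnd1 (LTO1) and Cdk1 (Ank3). By edgeR, Afmid was called higher as well (log2 fold change 0.38, SE 0.10, adjusted p = 0.0423), whereas Ank3 was called lower (−0.89, SE 0.24, adjusted p = 0.0439). The others were not called.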

How the data were processed

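RNA-seq was performed on CD11b+ cortical cells of 3 4LPS and 3 NS samples, each pooled from 2 mice, which were separate pools. The authors filtered and mapped paired reads to the mouse genome with HISAT2 (2.0.4) and Bowtie2 (2.2.5). Their methods name mm39, and the processing notes of the submitters mm10 as well. RSEM (1.2.8) gave the expression estimates, and DESeq2 (1.16.1) is named for testing. Gene annotation and strand setting: not given in the sources used here. Expected counts were deposited by the authors without normalization, and at most 2.84% of a sample's values were not whole. The authors also deposited FPKM and TPM values, scaled for gene length and library total, and a normalized signal per sample. TPM, that signal and the authors' group means were not used.

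The expected counts were rounded and tested with edgeR 4.0.16 under R 4.3.3 (TMM factors, filterByExpr, quasi-likelihood test, design of group alone, Benjamini-Hochberg adjustment, threshold 0.05). RSEM divides a read between genes it matches. Scripts were tested on simulated data. Samples of a group were checked for repeated libraries, and none was found (mean chi-square per gene of at least 5.93). With 3 samples per group an exact permutation test cannot pass 0.05, so p-values are from models over all genes, and they measure the spread between pools. The 45 genes, the other lists and the tests were chosen with earlier results of these data known. All 45 may be named, and from each other list up to 4 called genes with the smallest adjusted p. Smc4, Pmaip1, the other CDK inhibitors, Afmid, Ank3 and the single cell type markers fall outside that rule and were named after their values were seen. Coordinates are from the GENCODE annotation of GRCm39, and promoters from RefSeq. Alternatives were RLE, upper-quartile or no composition factors, no count filter, a stricter filter (50 counts in 3 samples), DESeq2 1.42.0, voom and FPKM fits in limma 3.58.1 (pseudocounts of 1 and 0.1, with a minimum of 1 FPKM in 3 samples or, at 1, no minimum), the replicate number as a block, a gene length correction by loess (span 0.5), that correction with the block, and leaving out each sample.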

Additional observations from a re-analysis of the deposited data

How the results depend on the processing

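Over 19 alternatives, the 45 fold changes kept their direction and side of the threshold in 755 values, gained a call in 14, lost one in 22 and changed sign in 15. E2f1, Mcm3 and Mcm7 passed in all 19, Ccnd1 in 18 of 19, Tk1 in 16 of 18, Mki67 in 10 of 19 and Cdk1 in 7 of 17. With each sample left out in turn, 781 to 1629 genes were higher, 363 to 1215 lower, and 3 to 14 of the 45 were higher and 0 to 1 lower. Without composition factors, 906 genes were higher and 1711 lower (34.6% of calls higher, against 60.8%), and the median of all genes was −0.11 and that of the 45 was 0.34. Limma on log2(FPKM + 1) gave 823 higher and 1486 lower, with a pseudocount of 0.1 813 and 1454, and without the filter 818 and 1335. Summed replication genes had a ratio of 1.03 in FPKM, against 1.14 in CPM. The same ratios over all genes tested were 1.08 in FPKM and 1.07 in CPM. The causes were not tested.

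Signs changed for 5 genes. Over the fits with a sample left out, Cenpf ranged from −0.11 to 0.29, Cdkn1a from −0.12 to 0.20, Bub1 from −0.29 to 0.98, Rrm1 from −0.0974 to 0.00473 and Foxm1 from −0.25 to 0.17. Cenpf was −0.0539 without composition factors, −0.0137 in unfiltered FPKM, and −0.04, −0.09 and −0.11 without NS replicate 1, NS replicate 2 and 4LPS replicate 1. Cdkn1a was −0.0102 without composition factors, −0.0226 in log2(FPKM + 1) with or without the filter, −0.0260 with a pseudocount of 0.1 and −0.12 without 4LPS replicate 3. Bub1 was −0.29 without NS replicate 1 and −0.20 without 4LPS replicate 3. Without NS replicate 3, Rrm1 was 0.00473 and Foxm1 0.17, and Foxm1 was 0.00679 without 4LPS replicate 2.

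With the replicate block, 1275 genes were higher and 1081 lower, and 7 of the 45 higher (Top2a was added) and 1 lower. Same-numbered samples correlated at 0.473, −0.262 and 0.0663 in their deviations from the group means. With 3 samples per group these values can neither show nor exclude a pairing, and the labels state none. Counts were low for Bub1 (2 to 21 per sample). No alternative was run beyond those listed with the processing.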

Other observations

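CDK inhibitors beyond Cdkn1a and Cdkn1b were called in neither direction, with 4 of 6 tested by edgeR (Cdkn2a and Cdkn3 were too low). Cdkn1c (p57), an inhibitor linked to quiescence, had 13.1, 8.77 and 12.5 CPM in 4LPS, against 24.1, 20.2 and 14.1 CPM in NS. All 4LPS samples were below all NS samples, and the log2 fold change of −0.77 (SE 0.22) missed the threshold (adjusted p = 0.0531 from edgeR). Choroid plexus and ependyma markers summed to 2219, 27.7 and 539 CPM in 4LPS, against 6522, 5671 and 683 CPM in NS, nearly the same order of samples, and their part in Cdkn1c was not tested. Cdkn2b, Cdkn2c and Cdkn2d had log2 fold changes of −0.41, 0.09 and 0.22 and did not pass.

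Among 19 genes of the p53 pathway and of quiescence, 3 were higher and 2 lower, against 9.95% and 6.43% of all genes tested. Their median log2 fold change was 0.11, against −0.02 over all genes tested. Bbc3 (Puma), a p53-induced killer protein of the BCL2 family, had 15.4, 16.7 and 18.3 CPM in 4LPS, against 7.80, 9.62 and 8.93 CPM in NS. Its groups did not overlap, and it was higher by 0.94 on the log2 scale (SE 0.12, adjusted p = 0.00193 from edgeR). Pmaip1 (Noxa), of the same family, was higher by 0.96 (SE 0.27, adjusted p = 0.0471 from edgeR), and the antiproliferative factor Btg1 by 0.39 (SE 0.10, adjusted p = 0.0381 from edgeR). Tob1, an antiproliferative factor of the Btg family, had 6.68, 5.37 and 5.42 CPM in 4LPS, against 14.2, 12.8 and 9.73 CPM in NS. Tob1 fell by 1.07 on the log2 scale (SE 0.17, adjusted p = 0.00616 from edgeR). The kinase Plk2, a p53 target, fell by 0.99 (SE 0.21, adjusted p = 0.0173 from edgeR). Of the called genes that restrain growth, Btg1 was thus higher and Tob1 lower.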
